A study of Mus musculus with 6 samples.

Results

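Transcripts of hepatic stellate cells, fibroblasts and their collagen matrix were followed in RNA from mouse liver tumour macrophages. The 34 genes were chosen by their symbols from the 55291 rows of the expression table: 11 collagen chains, 3 small proteoglycans, 8 other matrix proteins, and 12 genes of stellate, contractile or mesenchymal cells. The libraries came from tumour-associated macrophages of mouse hepatocellular carcinoma, 3 labelled TREM2+ and 3 labelled TREM2-, and no label names an age, strain, treatment or way of inducing the tumours. TREM2 is a lipid-sensing receptor on the surface of macrophages. How the cells were isolated is not given in the labels. Nor do the labels tie replicates to different mice, and each p-value therefore reflects variation among 6 libraries that could be technical.

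Stellate cells store vitamin A in the quiescent liver and, once activated, become contractile cells that lay down fibrillar collagen. Fibroblasts of tumours make the same fibrous matrix, whereas collagen IV forms the sheet-like basement membrane around vessels and epithelia. Macrophages take up and degrade such matrix and signal to the cells that make it, and they are not regarded as a main source of fibrillar collagen. RNA of an isolated population can also carry transcripts of other cells, and in such bulk libraries fewer cells of a type and less RNA per cell cannot be told apart.

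Levels are in TPM, a length-scaled abundance, obtained by rescaling each library to a total of 1000000. Reads recovered from the deposited values came to between 11494687 and 19932502 per library, and a read count below refers to these. The first TREM2- library stood apart in composition, holding the highest value for 52.0% of the 13788 genes tested. A family of 13 repeat-derived transcripts took between 0.427% and 24.6% of the TPM of a library. Trem2 itself, which checks the labels, reached 37.0 ± 5.51 TPM (SD, n = 3) in the TREM2+ and 19.5 ± 2.28 TPM in the TREM2- libraries, with adjusted p = 0.0855 in limma and p = 0.1 in an exact two-sided permutation test, the smallest that 3 against 3 libraries allow.

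All 34 transcripts were detected, but most of them barely. Each was above 0 in at least 1 library and 28 were above 0 in all 6. Among the 33 whose values convert to whole reads, 13 had at least 10 reads in every library and 4 had fewer than 10 reads in every library, namely Fbln1, Des, Hand2 and Tagln. As many as 21 stayed under 1 TPM in every library, and 7 were at or above it in all 6. The most abundant was Ecm1, at 577 ± 278 TPM in the TREM2+ and 218 ± 150 TPM in the TREM2- libraries (SD, n = 3). For comparison, the macrophage marker Cd68 lay between 1169 and 2081 TPM in the same libraries.

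**Figure D1:**
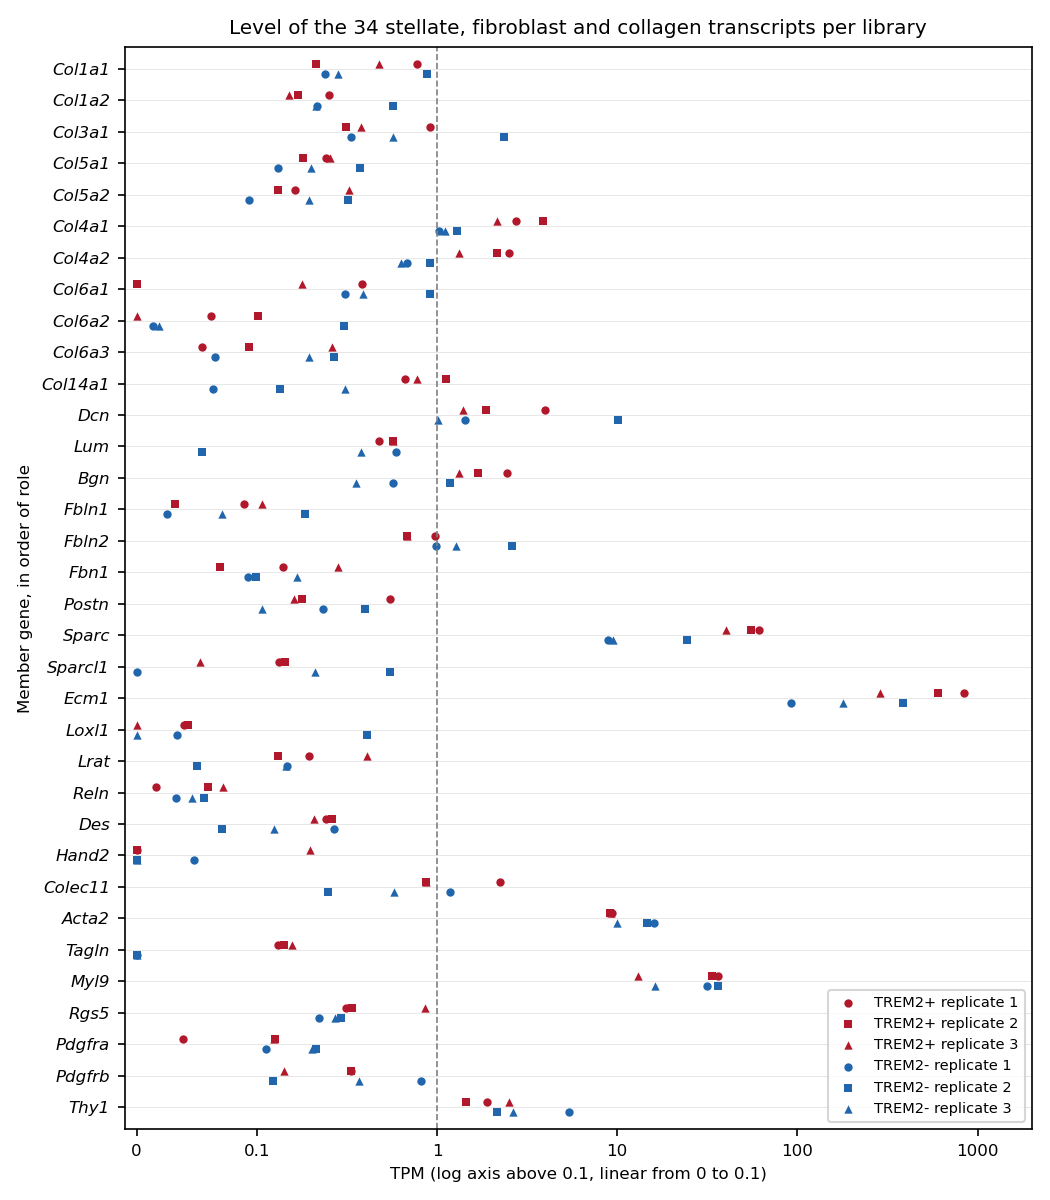
TPM of each of the 34 genes (rows, in order of role) in each of the 6 libraries, with TREM2+ in red and TREM2- in blue and a marker shape for each replicate; the axis is logarithmic above 0.1 TPM and linear below, and the dashed line marks 1 TPM. Most genes lie left of the line in all libraries, while Ecm1, Sparc, Myl9 and Acta2 lie well to its right.

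The comparison of TREM2+ with TREM2- libraries could be tested for 9 of the 34, those with at least 1 TPM in at least 3 libraries. The test was limma on log2(TPM + 1), two-sided, with Benjamini-Hochberg adjustment over all 13788 genes tested. Sparc rose and passed, none fell, and 8 did not pass. Among all genes tested 2.05% were called higher and 0.37% lower, and 1 call among 9 genes is too few to set against those shares. At an unadjusted p under 0.05 limma had 5 of the 9, all higher, and 12.8% of all genes tested were under it in either direction. The median log2 fold change of the 9 was 0.74, beside -0.09 for all genes tested. These counts and the median are a description only, since Col4a2, 1 of the 5, passed the filter through its TREM2+ libraries alone and so had to differ.

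**Figure D2:**
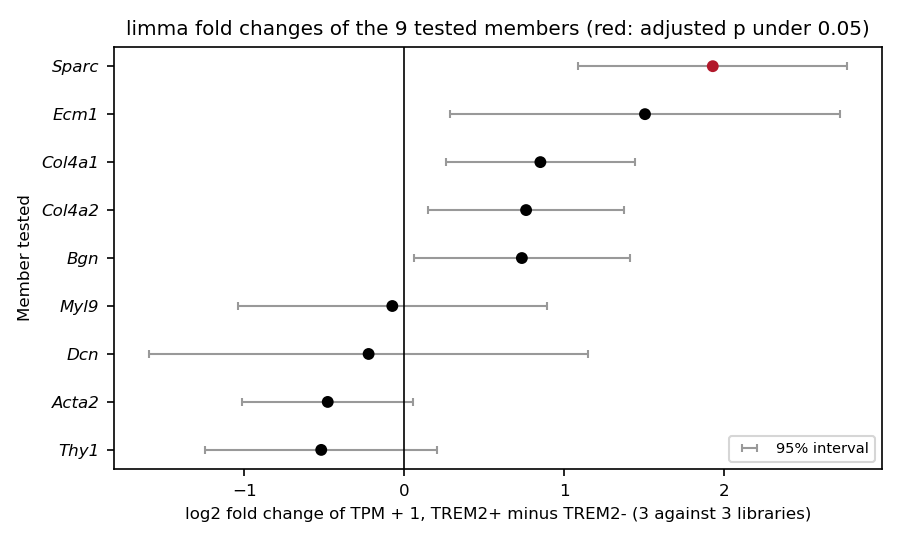
Log2 fold change of TPM + 1, TREM2+ minus TREM2-, for the 9 tested genes, with the 95% interval of the limma fit over 3 against 3 libraries. Sparc, in red, is the 1 gene with an adjusted p under 0.05; the intervals of Ecm1, Col4a1, Col4a2 and Bgn also lie above 0 before adjustment, and those of Myl9, Dcn, Acta2 and Thy1 include 0.

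A second look that keeps genes of low level used limma's voom on the recovered reads of 14200 genes with a mean of at least 10 reads, which include 23 of the 34 (Col5a1 with rounded values). Neither this filter nor that of limma uses the group labels. A gene can also reach this mean mainly through the group where it is high. It called Sparc and Col4a1 higher and none lower (1 lower at an unadjusted p under 0.05), where 3.27% of all genes were called higher and 1.2% lower. The median log2 fold change of the 23 was 0.06, beside -0.18 for all genes. Counted without any test, 7 of the 34 were higher in every TREM2+ than in any TREM2- library (Col4a1, Col4a2, Col14a1, Bgn, Sparc, Tagln and Rgs5), 2 were lower (Fbln2 and Acta2) and 25 overlapped. Over all genes above 0 in a library, 4.65% were higher and 5.62% lower without overlap. Among the 9 tested genes 4 were higher, Col4a2 included, and 1 lower without overlap, beside 9.07% and 7.62% of all genes tested.

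Fibrillar collagens, the rope-like chains that make up scar tissue, were near the limit of detection. Col1a1, the main chain of type I collagen (chromosome 11, 94936224 to 94953042, mm10), stood at 0.771, 0.214 and 0.475 TPM in TREM2+ replicates 1, 2 and 3 and at 0.239, 0.879 and 0.284 TPM in TREM2- replicates 1, 2 and 3. These values rest on 39, 10 and 20 reads against 14, 43 and 12 reads, and the groups overlap fully. Col3a1, the chain of type III collagen, stood at 0.912, 0.314 and 0.381 TPM against 0.331, 2.36 and 0.570 TPM, with 1 TREM2- library far above the rest. Col1a2, the partner of Col1a1, stood at 0.251, 0.169 and 0.150 TPM against 0.217, 0.572 and 0.213 TPM, again with its top value in TREM2- replicate 2. The type V chains, which join into type I fibres, were lower still. Col5a1 stood at 0.242, 0.180 and 0.255 TPM against 0.131, 0.376 and 0.200 TPM, values that did not convert to whole reads. Col5a2 stood at 0.162, 0.132 and 0.325 TPM against 0.0936, 0.322 and 0.194 TPM, and both overlapped. Summed over the 5 chains, the level was 1.64 ± 0.666 TPM in the TREM2+ and 2.33 ± 1.90 TPM in the TREM2- libraries (SD, n = 3), a difference well inside the spread. None of the 5 chains passed in voom. Their log2 fold changes there ran from -0.69 for Col1a2 to 0.11 for Col1a1, with 95% intervals of -1.86 to 0.48 and -1.37 to 1.60, so sizeable changes in either direction are inside the interval of Col1a1.

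The chains of basement membrane collagen were higher in every TREM2+ library, but neither passed in limma. Col4a1 and Col4a2 encode the chains that wind together as type IV collagen. Their genes lie head to head on chromosome 8 (11198423 to 11312826 on the minus strand and 11312805 to 11449287 on the plus strand, mm10), and their RefSeq starts overlap. The shared stretch is shown because these neighbours start at its opposite ends, are both transcribed across it, and were both higher in all TREM2+ libraries. It is given 5′ to 3′ on the strand of Col4a2, chr8:11312805-11312826, GRCm38.p6, 22 bases, all in lower case because no part is singled out:
Col4a1 and Col4a2 shared start: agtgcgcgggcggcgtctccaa

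Col4a1 stood at 2.75, 3.85 and 2.15 TPM in TREM2+ replicates 1, 2 and 3 and at 1.02, 1.29 and 1.10 TPM in the TREM2- replicates. Col4a2 stood at 2.51, 2.14 and 1.32 TPM against 0.678, 0.912 and 0.634 TPM. Neither gene overlapped between the groups, and Col4a1 was above Col4a2 in all 6 libraries. Neither passed in limma: Col4a1 had a log2 fold change of 0.85 ± 0.26 (SE) with adjusted p = 0.179, and Col4a2 of 0.76 ± 0.27 with adjusted p = 0.254. In voom on genes with a mean of 10 reads Col4a1 had 1.28 ± 0.28 with adjusted p = 0.0384, and Col4a2 had 1.35 ± 0.32 with adjusted p = 0.0512. The log2(TPM + 1) scale understates changes at this level: the ratio of mean TPM was 2.56 for Col4a1 and 2.68 for Col4a2. Because the strand setting of the counting is not given in the sources used here, reads in the few shared bases cannot be assigned to one gene.

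Collagen VI, a beaded filament near cell surfaces, was scarce. Col6a1 stood at 0.385, 0 and 0.178 TPM in the TREM2+ and 0.307, 0.919 and 0.390 TPM in the TREM2- libraries. Col6a2 stood at 0.0623, 0.101 and 0 TPM against 0.0135, 0.306 and 0.0187 TPM, and Col6a3 at 0.0542, 0.0938 and 0.260 TPM against 0.0656, 0.269 and 0.195 TPM. All 3 chains peaked in TREM2- replicate 2 and overlapped between the groups, with sums of 0.378 ± 0.162 TPM in the TREM2+ and 0.828 ± 0.587 TPM in the TREM2- libraries (SD, n = 3). Without TREM2- replicate 2, left out after its values were seen, the latter was 0.495 ± 0.154 TPM (n = 2). Col14a1, a collagen that binds to the surface of fibrils, was higher in all TREM2+ libraries. It stood at 0.666, 1.12 and 0.777 TPM in the TREM2+ libraries and at 0.0640, 0.134 and 0.310 TPM in the TREM2- libraries, on 36, 56 and 35 reads against 4, 7 and 14 reads. The groups did not overlap and the ratio of means was 5.04. It was too low for the limma test, and in voom it had a log2 fold change of 2.58 ± 0.61 with adjusted p = 0.0509, short of the threshold. Col14a1 reached the voom mean of 10 reads mainly through its TREM2+ libraries, which favours a higher value there, so its fold is a description only.

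Sparc was the 1 member gene that passed in limma. It encodes osteonectin, a collagen-binding protein made by cells that build or remodel matrix (ENSMUSG00000018593.13, chromosome 11, 55394500 to 55423183). It stood at 61.5, 55.1 and 40.3 TPM in TREM2+ replicates 1, 2 and 3, on 1795, 1488 and 981 reads. In TREM2- replicates 1, 2 and 3 it stood at 8.89, 24.3 and 9.48 TPM, on 300, 687 and 231 reads. Every TREM2+ library was above every TREM2- library, and TREM2- replicate 2 was the highest of its group. The means were 52.3 ± 10.8 and 14.2 ± 8.75 TPM (SD, n = 3), a log2 fold change of 1.93 ± 0.37 (SE), which is 3.81-fold, with adjusted p = 0.0315 in limma. Dropping 1 library at a time kept the call once, when TREM2- replicate 2 was dropped (adjusted p = 0.00209). Dropping TREM2+ replicate 1, 2 or 3 gave an adjusted p of 0.0804, 0.0753 and 0.0578, and dropping TREM2- replicate 1 or 3 gave 0.109 and 0.142. The log2 fold change stayed between 1.69 and 2.37 throughout.

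Ecm1, a secreted glycoprotein that binds other matrix proteins (ENSMUSG00000028108.15, chromosome 3, 95734147 to 95739569), was the most abundant of the 34. It stood at 841, 604 and 286 TPM in the TREM2+ libraries and at 91.5, 384 and 179 TPM in the TREM2- libraries. The groups overlap, since TREM2- replicate 2 lies above TREM2+ replicate 3. The log2 fold change was 1.51 ± 0.54, with adjusted p = 0.257 in limma, and among fits that drop 1 library the gene was called only without TREM2- replicate 2 (adjusted p = 0.0298, log2 fold change 2.03). Sparcl1, a homologue of Sparc, stood at 0.133, 0.143 and 0.0530 TPM against 0, 0.548 and 0.212 TPM, with overlap.

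Bgn encodes biglycan, a small leucine-rich proteoglycan that decorates collagen fibres (chromosome X, 73483602 to 73495933). It stood at 2.45, 1.68 and 1.33 TPM in the TREM2+ libraries and at 0.570, 1.19 and 0.357 TPM in the TREM2- libraries, without overlap. Its log2 fold change was 0.74 ± 0.30, with adjusted p = 0.336 in limma and 0.0963 in voom. Dcn, the related decorin, behaved differently, with 3.96, 1.87 and 1.39 TPM against 1.42, 10.1 and 1.01 TPM. One TREM2- library holds most of the Dcn reads of its group, 440 against 74 and 38. The log2 fold change of Dcn was -0.22 ± 0.61 (adjusted p = 0.935 in limma), with a 95% interval of -1.60 to 1.15, and it turned to 0.55 without TREM2- replicate 2. Lum, which encodes lumican of the same family, stood at 0.477, 0.573 and 0.573 TPM against 0.596, 0.0548 and 0.381 TPM, on at most 13 reads.

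The promoters of 24 of the 34 were found in the RefSeq table of GRCm38.p6. Those of Sparc, Bgn and Ecm1 are shown as the 250 bases before the annotated start, because these are the non-collagen matrix genes with the largest fitted differences in limma. They are printed 5′ to 3′ on the strand of the gene, with capitals for the TATA motif (TATAAA), the CCAAT box and the GC box (GGGCGG). Each was searched on both strands. The start that RefSeq gives for Sparc, base 55420080, lies 3103 bases inside the GENCODE span given above, so its window does too. The Sparc window is chr11:55420081-55420330 on the minus strand, that of Bgn chrX:73483351-73483600 on the plus strand and that of Ecm1 chr3:95739570-95739819 on the minus strand:
Sparc: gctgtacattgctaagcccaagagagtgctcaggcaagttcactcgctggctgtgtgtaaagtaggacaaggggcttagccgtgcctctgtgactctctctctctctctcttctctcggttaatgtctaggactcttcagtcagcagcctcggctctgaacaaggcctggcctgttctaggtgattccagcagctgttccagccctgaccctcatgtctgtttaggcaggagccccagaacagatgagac
Bgn: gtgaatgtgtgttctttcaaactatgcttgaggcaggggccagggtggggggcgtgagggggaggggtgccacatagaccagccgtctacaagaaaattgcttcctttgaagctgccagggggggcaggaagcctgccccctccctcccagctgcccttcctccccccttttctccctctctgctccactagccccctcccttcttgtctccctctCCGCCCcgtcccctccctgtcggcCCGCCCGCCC
Ecm1: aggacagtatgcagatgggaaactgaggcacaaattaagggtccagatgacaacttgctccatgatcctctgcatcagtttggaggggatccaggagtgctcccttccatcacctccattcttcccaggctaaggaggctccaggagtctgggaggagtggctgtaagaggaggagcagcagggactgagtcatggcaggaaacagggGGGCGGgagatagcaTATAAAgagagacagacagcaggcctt

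The windows of these genes share no layout of those letters. Ecm1 has a TATA motif and a GC box close to its start, Bgn has 3 GC boxes on the opposite strand, and the Sparc window has none of the searched motifs. Over all 32536 windows of this length in the table, 12.31% hold the TATA motif, 33.81% the CCAAT box and 32.97% the GC box. The 24 genes have 27 windows, of which 3 hold the TATA motif, 6 the CCAAT box and 15 the GC box. A match is a description of the letters and not of a bound factor.

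Other matrix proteins stayed low. Fbln2, a fibulin of vessel walls and basement membranes, stood at 0.978, 0.683 and 0.685 TPM in the TREM2+ and 0.986, 2.61 and 1.27 TPM in the TREM2- libraries. The groups do not overlap, but the highest TREM2+ and the lowest TREM2- value nearly touch. In voom its log2 fold change was -0.95 ± 0.45, with adjusted p = 0.258. Postn, which encodes the periostin of activated fibroblasts, stood at 0.552, 0.177 and 0.161 TPM against 0.232, 0.401 and 0.107 TPM. Fbn1, the fibrillin of elastic microfibrils, stood at 0.139, 0.0694 and 0.283 TPM against 0.0925, 0.0995 and 0.167 TPM. Both overlapped between the groups. Fbln1 had 1 to 6 reads per library. Loxl1, an enzyme that cross-links elastin, had 10 reads in TREM2- replicate 2 and 0 or 1 in each of the others.

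The genes that mark stellate cells themselves were close to absent. Lrat, the enzyme that esterifies retinol for storage, had 8, 5 and 14 reads in the TREM2+ and 7, 2 and 5 reads in the TREM2- libraries. Reln, which encodes the secreted protein reelin, had 3, 10 and 11 reads against 7, 10 and 7 reads, and Des, the intermediate filament of muscle and stellate cells, 2 to 9 reads. Hand2, a transcription factor of stellate cells, had 3 reads in TREM2+ replicate 3, 1 read in TREM2- replicate 1 and 0 in the other 4 libraries. A count of 0 allows up to 3 reads, so these levels cannot be ranked. Colec11, a lectin of the complement system, was the highest of them with 2.24, 0.865 and 0.865 TPM against 1.18, 0.248 and 0.575 TPM. Its highest value in each group fell in replicate 1, where the hepatocyte gene Alb was also highest (74.4 and 104 TPM, against 11.9 to 22.7 TPM elsewhere), and the part of hepatocyte RNA was not tested. Summed over these 5 genes the level was 1.92 ± 0.703 TPM in the TREM2+ and 0.997 ± 0.630 TPM in the TREM2- libraries (SD, n = 3), with overlap.

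Of the contractile genes, Acta2 and Myl9 were well detected. Acta2, the smooth muscle actin of activated stellate cells (chromosome 19, 34241090 to 34255590), stood at 9.39, 9.07 and 9.22 TPM in the TREM2+ libraries. It stood at 15.99, 14.5 and 9.98 TPM in the TREM2- libraries, so that all 3 lay above all TREM2+ values. The log2 fold change was -0.48 ± 0.24, with adjusted p = 0.473 in limma, so it did not pass; reads of actin genes with near-identical coding sequence may be split among them. Myl9, a regulatory light chain of myosin, stood at 36.1, 33.6 and 13.0 TPM against 31.7, 36.4 and 16.2 TPM. Its groups lay on top of each other, with a log2 fold change of -0.08 ± 0.43 and a 95% interval of -1.04 to 0.89, and both replicates numbered 3 were low. The direction of Myl9 turned in 5 other settings, so none is given. Tagln, the actin-binding protein transgelin that accompanies Acta2 in smooth muscle, had 2 reads in each TREM2+ library and 0 in each TREM2- library. With at most 2 reads no fold is given, and the gene overlaps Pcsk7 on the other strand. Rgs5, a pericyte gene, stood at 0.314, 0.339 and 0.857 TPM against 0.222, 0.295 and 0.274 TPM, on 8 to 25 reads.

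The receptors through which PDGF drives fibroblasts and stellate cells were low. Pdgfra stood at 0.0388, 0.126 and 0.124 TPM against 0.112, 0.214 and 0.202 TPM, and Pdgfrb at 0.332, 0.333 and 0.142 TPM against 0.819, 0.122 and 0.369 TPM, with overlapping groups. Thy1, a surface protein of fibroblasts that mouse T cells also carry, was higher, with 1.91, 1.45 and 2.496 TPM in the TREM2+ and 5.39, 2.15 and 2.65 TPM in the TREM2- libraries. Its log2 fold change was -0.52 ± 0.32, with adjusted p = 0.602 in limma. The highest Thy1 value fell in TREM2- replicate 1, where the 11 T cell genes listed summed to 1615 TPM, against 437 to 622 TPM in the other libraries. All 11 were above 0 in every library, none passed in limma (4 lower at an unadjusted p under 0.05), none in voom, and their part in the Thy1 level was not tested.

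TREM2- replicate 2 held the highest value of 14 of the 34 genes, beside 9.98% of all genes tested and 12.4% of all genes above 0. This was noticed after the values were seen and is given without a test. In 12 of the 34 this library was at least 2 times the median of the other 5. The share of all genes at that factor was not counted, so the 12 cannot be read as particular to these genes. The factor was 7.11 for Dcn, 6.21 for Col3a1, 3.09 for Col1a1, 2.99 for Col6a1 and 2.67 for Fbln2. The sum of the fibrillar collagens there was 4.51 TPM against 1.01 to 2.34 TPM in the others, and without this library the TREM2- sum was 1.24 ± 0.317 TPM (n = 2). In contrast the same library was lowest for Lum, Lrat, Des, Colec11 and Pdgfrb, all with at most 40 reads. The list of mesothelial genes moved with it: the 7 genes summed to 381 TPM in TREM2- replicate 2 and to 40.4 to 143 TPM elsewhere. That sum is carried by Msln, at 49.3 TPM against 2.49 to 10.5 TPM, and by the keratin Krt19, at 332 TPM against 36.4 to 132 TPM, which the list of bile duct genes also holds. Of the other 5, Upk3b, Upk1b, Wt1 and Muc16 were at 0 in at least 1 library and none exceeded 1 TPM, and whether cells of that kind had a part in the collagen values was not tested.

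**Figure D3:**
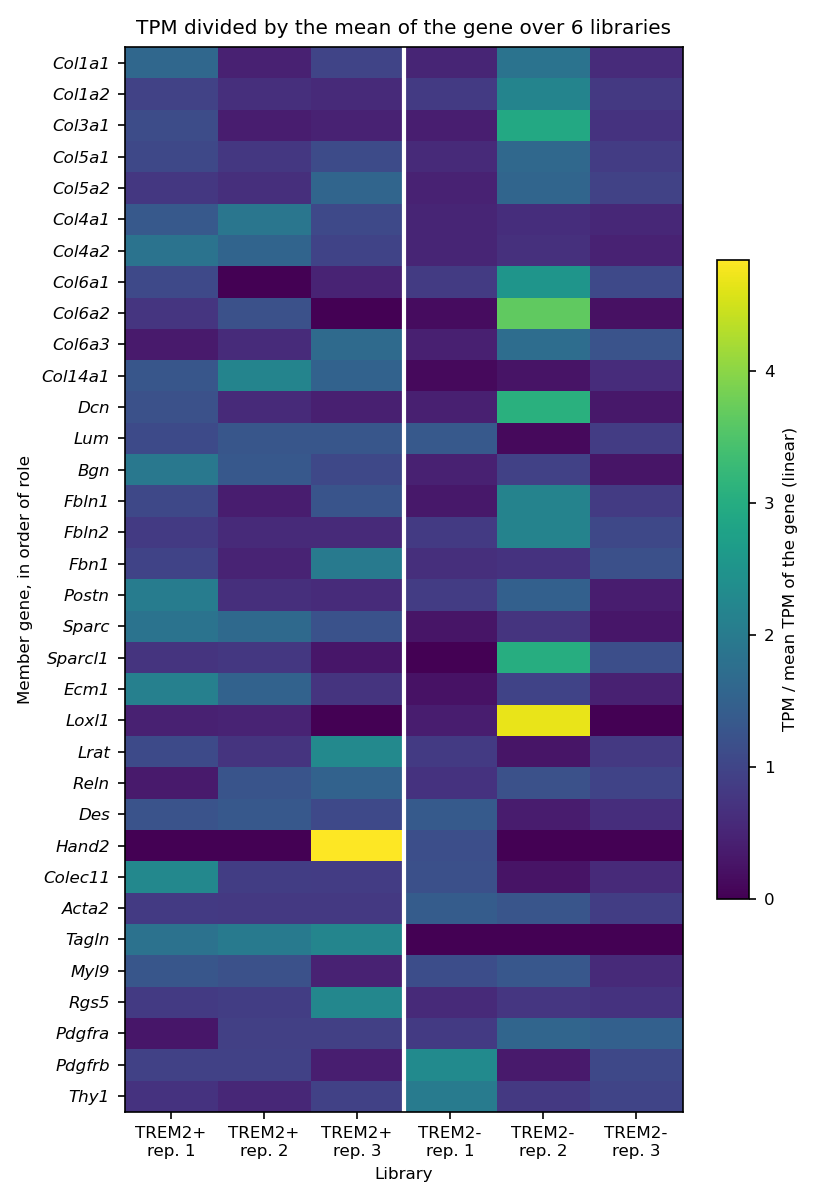
TPM of each of the 34 genes divided by its own mean over the 6 libraries, on a linear colour scale from 0, with a white line between the TREM2+ and the TREM2- libraries. Bright cells gather in TREM2- replicate 2 for the fibrillar and type VI collagens, Dcn, Fbln2 and Loxl1, while Col4a1, Col4a2, Col14a1, Bgn and Sparc are brighter in the TREM2+ libraries.

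Sparc, Col4a1, Col4a2 and Bgn are also made by endothelial cells, and endothelial markers moved with them. Of 20 such markers 15 rose and none fell in limma, 4 of the 15 having passed the filter through TREM2+ libraries alone. In voom, with its filter on the mean reads over all libraries, 17 of the 20 rose. None was at 0 in any library, and the list summed to 650 to 910 TPM in the TREM2+ and 217 to 294 TPM in the TREM2- libraries. The lectin Clec4g of liver sinusoids, picked after its values were seen, stood at 189, 124 and 166 TPM against 19.1, 13.0 and 7.39 TPM. Within the TREM2- group Sparc and Bgn were highest in replicate 2, as was the list, with sums of 219, 294 and 217 TPM. Most of that sum is Fcgr2b, which macrophages also express, and the other 19 genes summed to 75.2, 53.5 and 38.1 TPM. Taken singly, 13 of the 20 were highest in TREM2- replicate 1, 5 in replicate 2 and 2 in replicate 3. The part of endothelial RNA in the levels of Sparc, Col4a1, Col4a2 and Bgn was not tested. Set aside by background knowledge, 8 of the 34 are made by endothelium (Col4a1, Col4a2, Sparc, Sparcl1, Bgn, Ecm1, Reln and Fbln2). This choice was made with earlier results known, and the 8 include all 5 tested genes with a positive log2 fold change. A sum over the rest was therefore unlikely to rise and is a description only. The remaining 26 genes summed to 48.0 ± 13.6 TPM in the TREM2+ and 55.3 ± 18.8 TPM in the TREM2- libraries (SD, n = 3), and to 47.2 ± 17.7 TPM in the latter without replicate 2 (n = 2), which turns the direction. Myl9 and Acta2 made up most of both sums. Marker lists of these other cell types had few calls in limma: 1 of 13 hepatocyte genes rose (Trf) and 1 of 9 neutrophil genes fell (Camp). None of 6 B and plasma cell genes passed (0 at an unadjusted p under 0.05, and none in voom). Of 3 bile duct genes 1 rose (Spp1, which macrophages also express). It was the only 1 of the 3 with a positive log2 fold change, and their median was -0.35.

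**Figure D4:**
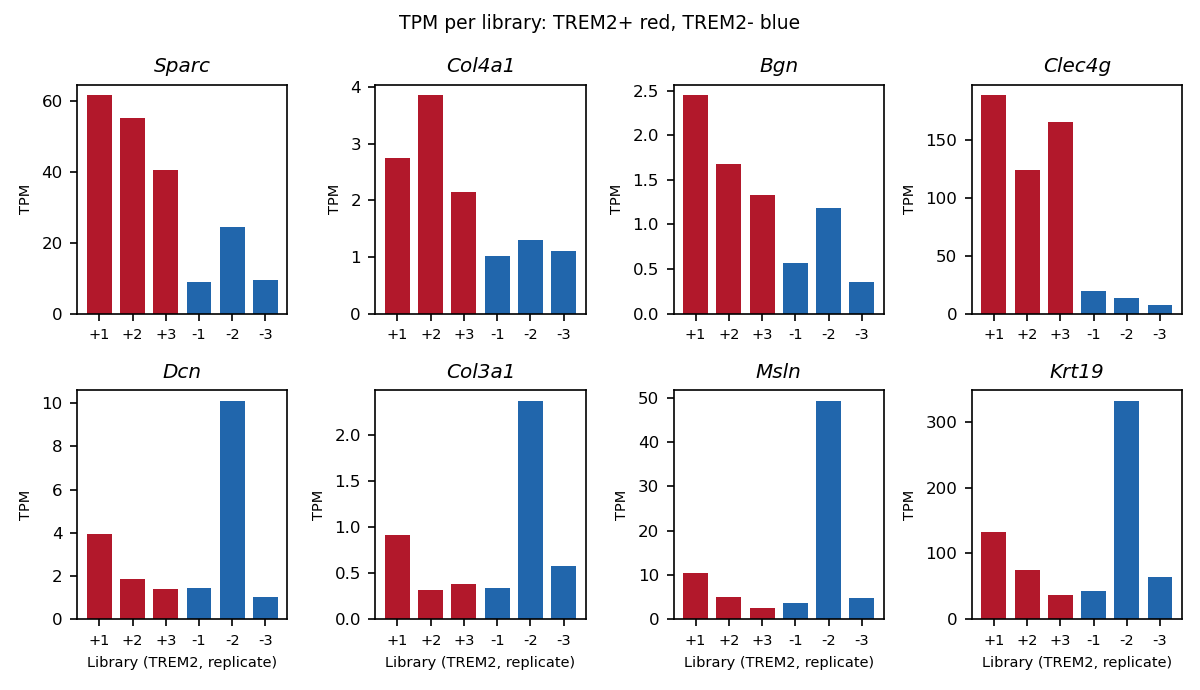
TPM per library (bars from 0, TREM2+ red, TREM2- blue, +1 to -3 giving TREM2 label and replicate) for 8 genes. In the upper row Sparc, Col4a1 and Bgn stand higher in all TREM2+ libraries, as does the endothelial gene Clec4g; in the lower row Dcn and Col3a1 peak in TREM2- replicate 2, as do Msln and Krt19.

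The wider matrix pathway was read from 6 lists that hold 118 further gene symbols, of which 117 had expression values and 53 could be tested. In limma 7 rose, none fell and 46 did not pass, beside the 2.05% and 0.37% of all genes given above. These counts are a description, since 7 of the 53 passed the filter through TREM2+ libraries alone and so had to be higher there, Pdgfc and Timp3 among the 7 that rose. In voom 11 of 74 rose and none fell. No other collagen chain of the 17 listed reached the level needed for the test. In voom 6 of the 17 entered and none passed. Closest was Col13a1 (rounded values), at 2.11, 0.749 and 1.23 TPM in the TREM2+ and 0.120, 0.229 and 0.232 TPM in the TREM2- libraries. Its adjusted p in voom was 0.0571, and it too owed its place there mainly to its TREM2+ libraries. Col18a1 was lower in all TREM2+ libraries, with adjusted p = 0.277 in voom. Of 13 genes that fold, process or cross-link collagen none passed in limma (before adjustment 7 had p under 0.05, all higher), and Plod1 and P4ha1 passed in voom. Closest were Plod1, a lysyl hydroxylase, with 26.8 ± 4.90 against 13.1 ± 0.402 TPM (SD, n = 3; adjusted p = 0.0637 in limma) and P4ha1, a subunit of prolyl hydroxylase, with 56.2 ± 1.49 against 28.6 ± 6.28 TPM (adjusted p = 0.0638). In TPM both enzymes were more abundant than any of the 11 collagen chains. P4ha2, another prolyl hydroxylase subunit, had a log2 fold change of 1.18 ± 0.36 with adjusted p = 0.166.

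Among TGF-beta and PDGF genes, the signals through which macrophages address stellate cells, 1 of 11 tested passed in limma. Pdgfc, a ligand of the PDGF receptors, rose from 0.761 ± 0.141 to 4.48 ± 0.333 TPM (SD, n = 3), a log2 fold change of 1.64 ± 0.23 with adjusted p = 0.00966 in limma. It reached 1 TPM only in the TREM2+ libraries, which fixes its direction in that test; with no low-value filter the adjusted p was 0.0487, and in voom 0.00374. Its call was kept whichever single library was dropped, but lost with the replicate block (adjusted p = 0.0515) and without both libraries numbered 3 (adjusted p = 0.201). Ltbp4, which stores latent TGF-beta in the matrix, and Tgfb3 did not pass in limma, with log2 fold changes of 1.09 ± 0.27 (adjusted p = 0.0838) and 1.48 ± 0.40 (adjusted p = 0.116).

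Among 8 further stellate and fibroblast markers that could be tested, 2 rose. Timp3, an inhibitor of metalloproteinases bound to matrix, rose from 0.582 ± 0.207 to 3.92 ± 1.46 TPM (adjusted p = 0.0245 in limma). It too reached 1 TPM only in the TREM2+ libraries; with no low-value filter its adjusted p was 0.123, and in voom 0.00811. Pdpn, the surface protein podoplanin of fibroblasts and lymphatic vessels, rose from 1.504 ± 0.480 to 5.74 ± 1.38 TPM (adjusted p = 0.0307). Dropping 1 library at a time kept each call 2 times of 6. Mcam, a surface gene of pericytes and endothelium, had 1.23 ± 0.32 with adjusted p = 0.103 in limma. Ltbp4 and Mcam, both at 1 TPM only in TREM2+ libraries, passed in voom (adjusted p = 0.0270 and 0.0463). Of the 26 genes on that list 13 were at 0 in at least 1 library, among them Lhx2, Ngfr and Gfap, which define stellate cells. In the list of laminins and other matrix proteins only Igfbp7 rose of 10 tested. It stood at 154 ± 18.1 TPM in the TREM2+ and 15.6 ± 5.03 TPM in the TREM2- libraries (SD, n = 3). Its log2 fold change was 3.26 ± 0.26 (SE), with adjusted p = 0.00242 in limma. Its call was kept in 6 of 6 fits that drop 1 library. Thbs1 and Nid1 did not pass in limma, with 1.34 ± 0.60 (adjusted p = 0.404) and 0.72 ± 0.33 (adjusted p = 0.405). The remaining 3 calls were Mmp12, Mmp13 and Mmp14, proteases that degrade matrix, of 11 enzymes and inhibitors tested. Their log2 fold changes were 1.98, 2.13 and 1.62, with adjusted p = 0.0050, 0.0147 and 0.00966 in limma. Neither these 3 calls nor that of Igfbp7 was kept without both libraries numbered 3. In limma Mmp13 also lost its call with no low-value filter (adjusted p = 0.0843) and without the repeat family (adjusted p = 0.0544). The same held with the replicate block (adjusted p = 0.0563) and without TREM2- replicate 1 (adjusted p = 0.0551).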

How the data were processed

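RNA of the macrophages was isolated with TRIzol, and its polyadenylated part was sequenced with paired ends on an Illumina instrument, per the labels' protocols. The submitters' processing notes name STAR 2.7.10a, Subread, featureCounts 2.0.3 and mm10; the annotation, strand setting and formula were not given in the sources used here. Deposited values are a length-scaled signal named TPM by the authors, but the 6 columns together, not each, sum to 1000000. Each library was therefore rescaled to 1000000. Multiplying the deposited signal by exon lengths of GENCODE M21 and dividing by the value of 1 read, shared by all 6 columns, gave whole reads, within 0.01 read in all libraries, for 98.6% of 36745 matched genes above 0; floors and read counts cover counting error only.

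A limma 3.58.1 fit (R 4.3.3) with an eBayes trend used log2(TPM + 1) of genes at 1 TPM or more in 3 or more libraries, with Benjamini-Hochberg adjustment over all genes and a threshold of 0.05. The fit was also run on simulated reads. These lack the differences in composition seen among the libraries here, so that run does not bear on the calls. Voom on genes with a mean of 10 recovered reads was added after seeing the data. Members and lists were chosen with earlier results of these data known. Members that passed the filter or had 10 reads in a library are given library by library; each pathway list names up to 3 tested genes with the smallest p. No 2 replicates agreed within sampling noise.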

Additional observations from a re-analysis of the deposited data

How the results depend on the processing

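The number of the 34 genes called higher in TREM2+ libraries was 1 and became 0 with no low-value filter, with a filter of 0.1 TPM, with median-of-ratios scaling, without the repeat family of Gm10800, with the replicate block, and without both libraries numbered 3. It became 3 with library weights or with voom on recovered reads (Sparc, Col4a1 and Col4a2 in both) and 2 with voom on genes with a mean of 10 reads, and ranged from 0 to 2 in fits without 1 library. The weights were highest for TREM2- replicate 2 (3.53) and lowest for TREM2- replicate 1 (0.268). Sparc kept its direction in all 19 other settings, with log2 fold changes from 1.46 to 2.37, and lost its call in 11. The number called lower was 0 in all of them. Of the wider matrix genes, 7 were called higher; this became 4 with no low-value filter, 3 with the replicate block, 16 with library weights, 11 with either voom fit and 0 without both libraries numbered 3, and 1 was called lower with library weights. The log2 fold change of Dcn turned to 0.55 when TREM2- replicate 2 was left out and ranged from -0.68 to 0.55 over fits that omit 1 library. That of Myl9 ranged from -0.42 to 0.38 over those fits, turning to 0.38 when TREM2+ replicate 3, to 0.047 when TREM2- replicate 1 and to 0.14 when TREM2- replicate 2 was omitted. It also turned to 0.0068 with median-of-ratios scaling and to 0.035 without both libraries numbered 3. The causes were not tested. Whether the shared replicate numbers pair the libraries is not known. Deviations of same-numbered libraries correlated at 0.19, -0.03 and 0.22, and those of differently numbered libraries at -0.38 to 0.13. The repeat family took 0.704%, 5.05% and 17.5% of TREM2+ replicates 1, 2 and 3, and 0.427%, 12.9% and 24.6% of the TREM2- replicates. So few libraries can neither show nor exclude a pairing, and the block is given as one more setting. The median of all genes moved between -0.18 and 0.04. The 1 TPM filter left 25 of the 34 untested in limma, with a highest value of 2.61 TPM; 14 of them entered voom.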
